A study of Homo sapiens with 24 samples.

Results

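The genes described here are 39 transcriptional targets of p53, taken by symbol from a fixed list that leaves out the BCL2 family, death receptors, CDK inhibitors and the MDM2 loop. All 39 had reads and were tested, out of 22833 genes tested in all. No measured value enters the rule, but the genes were chosen with earlier results of these data known. RNA was sequenced from HCT116, a human colorectal cancer cell line, and from HCT116 oxpl-R, a subline selected by repeated pulses of oxaliplatin. Both lines carried a doxycycline-inducible (Tet-On) transgene of the adenoviral protein E1A, so the control samples held it as well, uninduced. Each line was left untreated (control), given oxaliplatin at 25 µM for 24 h, given doxycycline at 0.5 µg/mL to induce E1A, or given both, with doxycycline 3 h before the drug. There were 8 groups of 3 samples, 24 in all. The resistant subline is a single derived line, so its differences from HCT116 are differences between a pair of lines. The labels call the replicates biological without saying how they were kept apart, so the p-values measure the spread between these samples, part of which may be technical. The human gene tables hold no E1A sequence, so induction of the transgene was not checked here. No group received doxycycline without the transgene, so effects of E1A and of doxycycline itself cannot be told apart.

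p53 is a transcription factor that is normally kept low by the ubiquitin ligase MDM2. DNA damage, which platinum drugs cause by crosslinking bases, stabilises p53, and it then binds its response elements and switches on genes for cell cycle arrest, DNA repair, cell death, metabolism and signalling. E1A binds the retinoblastoma protein and the acetyltransferases p300 and CBP, and is known both to stabilise p53 and to interfere with p300-dependent transcription.

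Of the 39 genes, 33 had an entry in the RefSeq promoter table of GRCh38.p14, which gives 250 bases before and 50 bases after each gene start. FBXO22, GADD45A, PHLDA3, TP53INP1, ASCC3 and RRM2B had no entry. The p53 consensus half-site, which reads the same on both strands, was searched in each window. It was found in 6 of the 33 windows (18.2%), against 1786 of 27305 windows of all genes (6.54%). The 6 sequences are shown because they are the members whose proximal promoter carries the letters that p53 recognises; each is 60 bases long, runs 5′ to 3′ on the strand of its gene, and has the half-site in capitals.
ABHD4 (chr14:22598269-22598328, plus strand): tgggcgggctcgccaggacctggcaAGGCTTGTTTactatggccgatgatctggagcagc
AEN (chr15:88621281-88621340, plus strand): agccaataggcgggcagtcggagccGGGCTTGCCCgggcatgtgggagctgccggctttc
FDXR (chr17:74872971-74873030, minus strand): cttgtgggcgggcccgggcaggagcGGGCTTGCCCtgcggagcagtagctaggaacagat
PLK2 (chr5:58460184-58460243, minus strand): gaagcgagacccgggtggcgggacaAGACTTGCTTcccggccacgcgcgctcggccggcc
RAP2B (chr3:153162140-153162199, plus strand): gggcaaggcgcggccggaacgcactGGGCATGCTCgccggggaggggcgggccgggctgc
RPS27L (chr15:63157502-63157561, minus strand): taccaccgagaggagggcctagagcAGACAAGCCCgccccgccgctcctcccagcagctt
A match describes letters in a window and not a bound site, and windows without a match say nothing of response elements in introns or further upstream. With oxaliplatin, 5 of these 6 genes rose in HCT116 (all but RAP2B), as did 24 of all 39 genes and 9.04% of all genes tested. In HCT116 oxpl-R 4 rose (all but RAP2B and RPS27L), as did 30 of the 39 and 3.09% of all genes tested.

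Levels are given as CPM, the counts of a gene scaled to a common library size after TMM normalization, and fold changes on the log2 scale with their standard error. A gene is called when its adjusted p-value in edgeR's quasi-likelihood test is below 0.05. Total counts per sample ran from 24838095 to 37927720, and the lowest correlation between replicates of a group ran from 0.946 to 0.993. The cells had the epithelial markers EPCAM (175 to 388 CPM), CDH1 (71.5 to 203), KRT8, KRT18, KRT19 and CLDN4, while CEACAM5 and LGR5 stayed below 1 CPM. Of 12 markers of immune, stromal, endothelial and liver cells, COL1A1 lay between 13.0 and 40.3 CPM in every sample, COL1A2 reached 13.0 CPM at most, and the other 10 stayed at or below 2.09 CPM. Of the 12, none was called with oxaliplatin in HCT116 and 1 was called lower in HCT116 oxpl-R. Of the 8 epithelial markers, KRT8, KRT18, KRT19 and CLDN4 rose with oxaliplatin in both lines (KRT8 in HCT116 from a mean of 3770 to 7071 CPM), and CEACAM5 was called lower in HCT116 oxpl-R. The part of this in the results was not tested. Some libraries stood apart. Replicate 1 of HCT116 oxpl-R with oxaliplatin had 1.38% mitochondrial counts, against 11.03% to 19.7% elsewhere. In HCT116 the mitochondrial share was 13.6%, 11.7% and 14.9% in the controls and 18.5%, 17.1% and 19.5% with oxaliplatin, without overlap. With mitochondrial genes left out of the library sizes, 27 of the 39 genes were called with oxaliplatin in HCT116, in place of 25. The share of all genes called in that fit was not counted, so the added calls lack a background. In replicate 3 of HCT116 with oxaliplatin, the level rose with transcript length with a slope of 0.243 (log2 level on log2 length, gene length in the same fit), against -0.101 and -0.0976 in the other two replicates. Replicate 1 of HCT116 with E1A and oxaliplatin had a slope of 0.167.

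The first question was whether oxaliplatin raised the p53 targets in the parental line. In HCT116, 24 of the 39 genes rose, KITLG fell and 14 did not pass the test. The background was 9.04% of all genes called higher and 8.49% called lower. The median change of the 39, with GLS2 and EDA2R below 1 CPM included, was 0.93 log2 units, against -0.10 over 11935 genes with at least 1 CPM. For 27 of the 39, every treated sample lay above every control, as was the case for 15.5% of all genes. By role, 8 of 10 genes of cell cycle arrest and growth control rose, 10 of 13 of death and autophagy, 4 of 9 of metabolism and redox, 1 of 4 of DNA repair and nucleotide supply, and 1 of 3 secreted or signalling genes.

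GDF15, a secreted stress cytokine, had 67.5, 63.4 and 52.6 CPM in the HCT116 controls. Oxaliplatin brought it to 507, 469.7 and 428 CPM, a change of 2.94 ± 0.23 (SE; adjusted p = 6.0e-10 by edgeR). This was the greatest rise among the 39 genes in HCT116, and the groups were far apart.

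Among the genes of cell cycle arrest, BTG2, an antiproliferative cofactor, measured 30.6, 29.7 and 33.5 CPM in the controls. With the drug it measured 179.8, 169 and 138 CPM, higher by 2.38 ± 0.16. The stress kinase PLK3 rose by 1.66 ± 0.18, the transcriptional coregulator SERTAD1 by 1.54 ± 0.17, the immediate early gene IER5 by 1.38 ± 0.18 and SFN, the 14-3-3 sigma protein that holds cells in G2, by 1.11 ± 0.16. PLK2, a polo-like kinase, rose from 34.7, 38.3 and 31.3 CPM to 56.4, 65.5 and 74.8 CPM (0.91 ± 0.19). GADD45A, which binds PCNA and stress kinases, rose by 0.65 ± 0.17, a call lost once the trend with transcript length was removed (0.46, adjusted p = 0.058), and BTG1 rose by 0.51 ± 0.17. BTG1 was not called without replicate 1 or 2 of either group (adjusted p up to 0.11). Cyclin G1 (CCNG1) measured 154, 144 and 112 CPM without and 83.0, 114 and 94.0 CPM with the drug, and did not pass (adjusted p = 0.34). The phosphatase PTP4A1 changed by 0.12 ± 0.22. PTP4A1 has processed pseudogenes, between which the quantification could split reads.

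Death and autophagy genes rose by a median of 1.33. RPS27L, a ribosomal protein paralogue that modulates p53 and apoptosis, measured 30.8, 26.9 and 34.01 CPM in the controls and 209, 224 and 58.0 CPM with oxaliplatin, a change of 2.42 ± 0.38. The low value came from replicate 3, the library with the steep length slope. The AKT repressor PHLDA3 rose from 33.98, 40.2 and 46.1 CPM to 220.2, 196 and 189.6 CPM (2.33 ± 0.21). TP53I3, an oxidoreductase linked to reactive oxygen, rose from 13.1, 11.6 and 13.0 CPM to 68.3, 70.0 and 36.1 CPM (2.21 ± 0.22), again with replicate 3 lowest. SPATA18, a regulator of mitochondrial quality, was near the floor, with 7, 1 and 4 counts in the controls and 26, 13 and 20 counts with the drug. Its fitted change of 2.32 ± 0.58 depends on the prior count, and its call was lost with the samples of this comparison alone (adjusted p = 0.065) and without replicate 2 of the controls (adjusted p = 0.051). The autophagy gene TP53INP1 rose by 1.33 ± 0.23, the PIDDosome scaffold PIDD1 by 1.33 ± 0.22, the exonuclease AEN by 1.27 ± 0.16, the membrane rupture protein NINJ1 by 1.19 ± 0.17 and the cytoskeletal gene CYFIP2 by 1.08 ± 0.16. SUSD6 rose by 0.69 ± 0.18, a call lost without replicate 1 of the controls (adjusted p = 0.065). The lysosomal autophagy gene DRAM1 measured 23.4, 25.6 and 21.6 CPM without and 25.6, 33.6 and 31.2 CPM with the drug, which did not pass (adjusted p = 0.18). DRAM1 was called higher after the expression filter (0.43, adjusted p = 0.036), by DESeq2 (0.44, adjusted p = 0.019), with the second table (0.62, adjusted p = 0.014) and by limma. TRIAP1, an inhibitor of apoptosis, measured 31.4, 32.3 and 27.1 CPM without and 66.7, 71.1 and 25.2 CPM with oxaliplatin. It missed the threshold (adjusted p = 0.052) and passed with RLE scaling, the expression filter and DESeq2, and without replicate 3 its change was 1.19 (adjusted p = 0.0019). The receptor gene EDA2R had 1, 5 and 6 counts in the controls and 4, 22 and 8 with the drug, too few for a fold.

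Metabolism and redox genes divided. FDXR, the mitochondrial ferredoxin reductase, rose from 70.9, 80.4 and 92.3 CPM to 381, 349.8 and 358 CPM (2.16 ± 0.20), with no overlap. The stress sensor SESN2 rose by 0.96 ± 0.20, the lipase ABHD4 by 0.93 ± 0.18 and the carboxylesterase CES2 by 0.73 ± 0.18. FUCA1, a lysosomal fucosidase (0.50 ± 0.18, adjusted p = 0.0503), NADSYN1, an NAD synthetase (0.36 ± 0.16, adjusted p = 0.11), SESN1 (0.54 ± 0.30) and TIGAR, a fructose bisphosphatase (-0.19 ± 0.35), were not called. FUCA1 was called higher with RLE scaling, the expression filter, the second table, its own samples alone and DESeq2, and NADSYN1 with the filter, the second table, DESeq2 and limma. SESN1 was called higher by edgeR once the trend with transcript length was removed (0.85, adjusted p = 0.030). Glutaminase 2 (GLS2) had at most 7 counts in any of the 24 samples and is given no fold in any comparison.

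In the repair and nucleotide group, DDB2, the damage sensor of nucleotide excision repair, rose from 39.7, 36.1 and 41.1 CPM to 171, 167 and 128 CPM (2.00 ± 0.16). The other 3 did not pass. The p53-inducible ribonucleotide reductase subunit RRM2B measured 54.0, 51.6 and 37.5 CPM without and 29.98, 47.7 and 71.4 CPM with the drug. The helicase ASCC3 measured 35.98, 40.9 and 30.7 CPM without and 14.1, 15.2 and 58.2 CPM with it. Replicate 3 was the highest of the 3 treated samples for both genes, and without it ASCC3 was called lower, with a change of -1.24 (adjusted p = 0.0076). The ubiquitin ligase subunit FBXO22 changed by 0.24 ± 0.28.

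KITLG, the ligand of the receptor KIT, was the only one of the 39 genes called lower in HCT116. It measured 818, 818 and 559 CPM in the controls and 119, 182 and 349.8 CPM with oxaliplatin, a change of -1.75 ± 0.54 (adjusted p = 0.022). The groups did not overlap, although replicate 3 was nearest in both. DESeq2 did not call it (adjusted p = 0.054), and the call was lost without replicate 1 or 2 of either group, at the smallest with a change of -1.37 (adjusted p = 0.16). RAP2B, a RAS-related GTPase, missed the threshold (0.45 ± 0.18, adjusted p = 0.080) and passed with RLE scaling, the expression filter and DESeq2, and without replicate 3 of the treated samples (0.74, adjusted p = 9.5e-04). Since RNA of whole cultures was sequenced, more cells expressing a gene and more RNA per cell cannot be told apart.

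**Figure D1:**
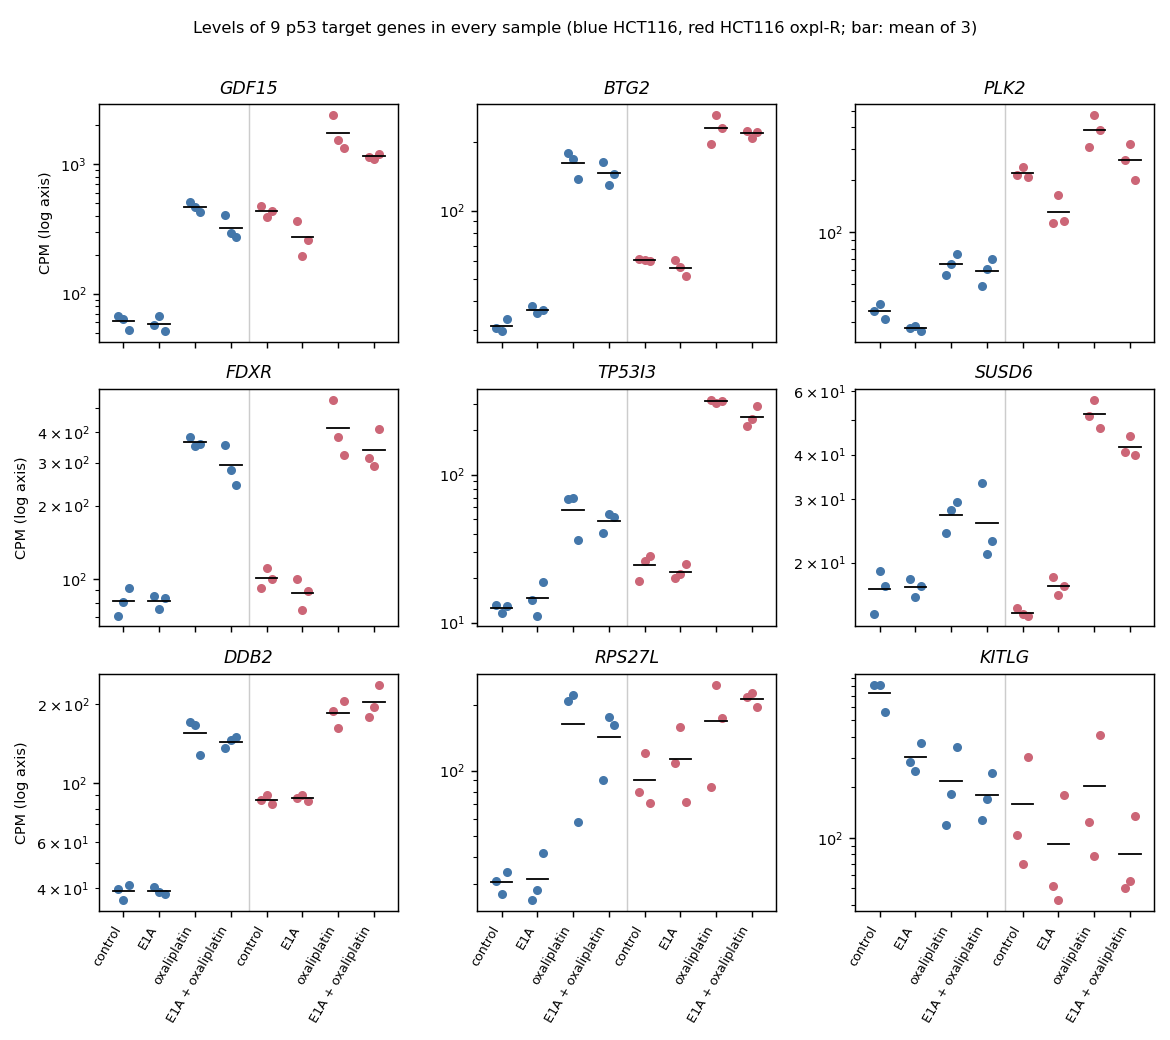
CPM (log axis) of 9 of the genes in each of the 24 samples, by group; points are samples and bars are means of 3. GDF15 in HCT116 moves from between 52.6 and 67.5 CPM to between 428 and 507 CPM with oxaliplatin, while KITLG starts at 559 to 818 CPM in the HCT116 controls and is lower in every other group.

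The same treatment was then compared in the resistant line. In HCT116 oxpl-R, 30 of the 39 genes rose, none fell and 9 did not pass, with a background of 3.09% of all genes called higher and 3.07% called lower. The median change of the 39, again with GLS2 and EDA2R included, was 1.17, against 0.01 over genes with at least 1 CPM. For 31 genes every treated sample lay above every control, against 9.48% of all genes. Rises were called for 11 of 13 death and autophagy genes, 8 of 10 of cell cycle arrest, 7 of 9 of metabolism, 3 of 4 of repair and 1 of 3 secreted or signalling genes.

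TP53I3 had the steepest rise in this line. It measured 19.1, 26.2 and 28.4 CPM in the resistant controls and 320.0, 307 and 315 CPM with oxaliplatin, a change of 3.68 ± 0.24 (adjusted p = 1.6e-11 by edgeR). TP53INP1 went from 32.8, 28.6 and 23.1 CPM to 100.3, 135 and 118 CPM (2.07 ± 0.23). SUSD6 went from 14.9, 14.4 and 14.2 CPM to 51.2, 56.8 and 47.4 CPM (1.84 ± 0.18). All 3 genes had groups far apart. SPATA18 here had 46, 51 and 55 counts in the controls and 167, 176 and 117 counts with the drug (1.60 ± 0.47), and its call was lost without any one of 5 of these 6 libraries (adjusted p up to 0.13). DRAM1 rose from 25.1, 26.4 and 22.4 CPM to 47.7, 68.5 and 60.2 CPM (1.25 ± 0.18). TRIAP1 rose by 1.35 ± 0.30, CYFIP2 by 1.44 ± 0.17, PHLDA3 by 1.37 ± 0.21, NINJ1 by 1.23 ± 0.17, PIDD1 by 0.90 ± 0.22 and AEN by 0.80 ± 0.16. RPS27L measured 79.4, 120.1 and 71.0 CPM without and 83.8, 249.7 and 175 CPM with oxaliplatin. It did not pass (adjusted p = 0.16), and was called without replicate 1, the library with few mitochondrial counts (1.24, adjusted p = 0.048). PIDD1 lost its call without that library (0.72, adjusted p = 0.077), as did IER5 (0.55, adjusted p = 0.057). PIDD1 also lost it without replicate 1 of the controls (adjusted p = 0.068), and IER5 with the samples of this comparison alone (adjusted p = 0.065).

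FDXR rose from 91.7, 111 and 100.1 CPM to 542, 381 and 322 CPM (2.04 ± 0.20), GDF15 from 479.6, 389 and 435 CPM to 2390.3, 1531 and 1338 CPM (2.01 ± 0.22), and BTG2 from 61.4, 60.9 and 60.1 CPM to 196, 262 and 231 CPM (1.92 ± 0.16). For FDXR and GDF15 the highest treated value was that of replicate 1. Among the other arrest genes, PLK3 (1.60), SERTAD1 (1.60) and SFN (1.56) rose most, followed by GADD45A (1.17), PLK2 (0.83), IER5 (0.79) and BTG1 (0.68). BTG1 was not called without replicate 3 of the treated samples (0.50, adjusted p = 0.078) or with the samples of this comparison alone (adjusted p = 0.083). Its call was also lost without replicate 2 or 3 of the controls (adjusted p = 0.051 and 0.078). CCNG1 and PTP4A1 were again not called.

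The sestrin SESN1, which restrains mTORC1 signalling, rose from 15.05, 10.2 and 20.3 CPM to 42.5, 49.8 and 74.1 CPM (1.87 ± 0.31), and SESN2 rose by 0.93 ± 0.20. CES2 (1.344), NADSYN1 (1.10), ABHD4 (1.08) and FUCA1 (1.01) rose as well. In the repair group, DDB2 rose by 1.09 ± 0.16 and FBXO22 by 1.02 ± 0.28. FBXO22 was not called on the second table by limma (adjusted p = 0.11) or edgeR (adjusted p = 0.062). Its call was also lost without replicate 1 or 2 of the controls (adjusted p = 0.099 and 0.067) or replicate 3 of the treated samples (adjusted p = 0.082). RRM2B rose from 60.03, 33.7 and 95.9 CPM to 114, 107 and 287 CPM (1.42 ± 0.43, adjusted p = 0.045), and was not called after genes with low counts were removed (adjusted p = 0.068) or without replicate 3 of the treated samples (0.79, adjusted p = 0.40). KITLG measured 104, 69.5 and 304 CPM without and 124, 77.8 and 408 CPM with the drug (0.35 ± 0.53), and replicate 3 was highest in both groups. RAP2B (0.57 ± 0.18, adjusted p = 0.055; called after the expression filter and by DESeq2), ASCC3 and TIGAR were not called, and EDA2R had at most 3 counts in these groups.

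Whether the lines differed in their response was tested with the interaction of line and drug. Of the 39 genes, 3 responded more in HCT116 oxpl-R and 1 responded less, with a background of 0.950% higher and 2.12% lower. TP53I3 responded more by 1.47 ± 0.30 log2 units (adjusted p = 0.0056 by edgeR), SUSD6 by 1.14 ± 0.25 (adjusted p = 0.010) and DRAM1 by 0.90 ± 0.25 (adjusted p = 0.044). DDB2 responded less, by -0.90 ± 0.22 (adjusted p = 0.019). TP53I3 and SUSD6 were called under every alternative run. DRAM1 lost its call without any one of 10 of the 12 libraries compared, at the smallest with a difference of 0.70 (adjusted p = 0.22), with RLE scaling (0.82, adjusted p = 0.070), with the second table (0.61, adjusted p = 0.19) and by limma. DDB2 lost its call without replicate 1 (adjusted p = 0.053) or replicate 2 (adjusted p = 0.081) of the HCT116 controls. DDB2 reached similar levels with the drug in both lines (171, 167 and 128 CPM in HCT116, 188, 162 and 205 CPM in HCT116 oxpl-R) from different untreated levels, while TP53I3 reached higher ones in HCT116 oxpl-R.

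The number of such differences and the balance of more against less depended on the method and on single libraries. DESeq2 called 8 genes, 4 more and 4 less (background 7.03% in either direction), the expression filter gave 4 more and 3 less, and RLE scaling gave 2 more and 2 less. The share of all genes was not counted with the filter or RLE scaling, nor by direction for DESeq2, so these balances lack a background. Without replicate 3 of HCT116 with oxaliplatin 11 genes were called (background 6.99%), and without replicate 1 of HCT116 oxpl-R with oxaliplatin 7 were (4.17%). Without replicate 1 or without replicate 2 of the HCT116 controls 2 were called (1.42% and 1.40%). Added without replicate 3 of HCT116 with oxaliplatin were ASCC3 (1.80), KITLG (2.59), SESN1 (1.46), TP53INP1 (1.04), GDF15 (-1.03), PHLDA3 (-1.05) and RPS27L (-1.96). Leaving out replicate 1 of HCT116 oxpl-R with oxaliplatin added GDF15 (-1.21), IER5 (-0.83) and PHLDA3 (-1.27). The 35 genes not called in all samples ranged from -1.51 (RPS27L) to 2.11 (KITLG). There KITLG had a difference of 2.11 ± 0.75 (adjusted p = 0.13), PHLDA3 of -0.96 ± 0.29 (adjusted p = 0.060) and GDF15 of -0.93 ± 0.31 (adjusted p = 0.099). PHLDA3 was called as responding less with RLE scaling, the expression filter, the second table, DESeq2 and limma, and GDF15 with the filter, the second table and DESeq2. NADSYN1 (0.74, adjusted p = 0.060) was called as responding more with the filter and DESeq2. A replicate block added KITLG (2.36, adjusted p = 0.0061), SESN1 (1.37), RRM2B (1.48) and NADSYN1 as responding more, and GDF15 and PHLDA3 as responding less. Samples of the same number did not deviate together across all the groups that this difference uses. For FDXR the difference was -0.12, with a 95% interval from -0.69 to 0.45, and for PLK2 it was -0.08, from -0.66 to 0.50. The intervals rest on the standard error and 16 residual degrees of freedom.

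**Figure D2:**
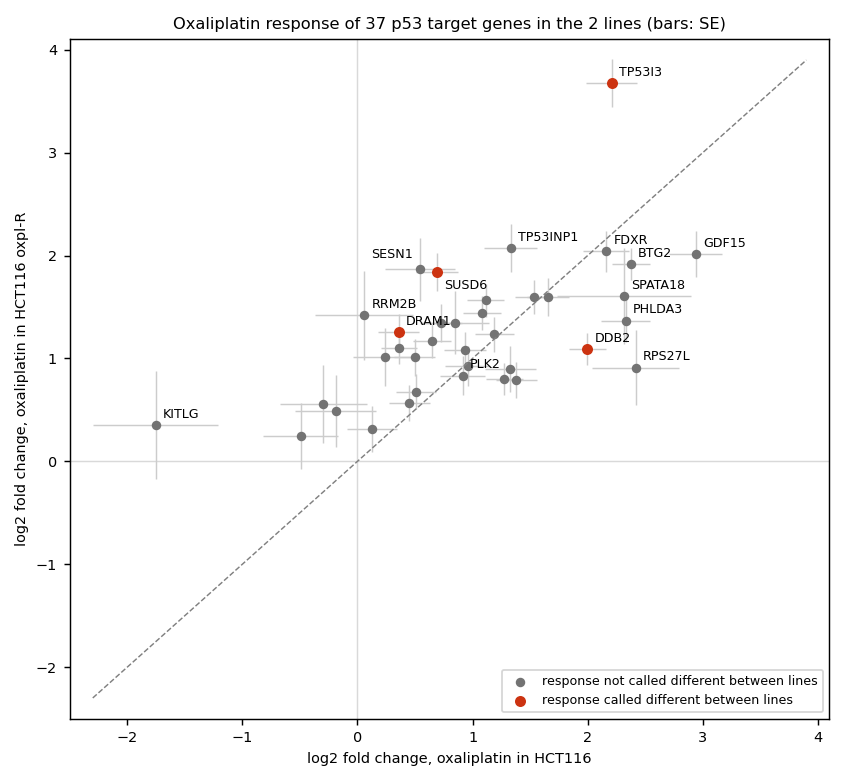
Log2 fold change with oxaliplatin in HCT116 (x axis) and HCT116 oxpl-R (y axis) for 37 of the genes, without GLS2 and EDA2R; bars are standard errors and the dashed line marks equal responses. TP53I3, SUSD6 and DRAM1 lie above the line and DDB2 below it (red, called different), and KITLG is at -1.75 in HCT116 and 0.35 in HCT116 oxpl-R.

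Response and gene length were set side by side, using GENCODE positions on GRCh38 from a release earlier than the authors'. In HCT116 the 21 targets of at most 20 kb had a median change of 1.19 and 17 of them rose, while the 18 longer ones had a median of 0.52 and 7 rose. Across the 39 genes the correlation of change with log2 length was r = -0.38 (rho = -0.39), and across 11097 genes with at least 1 CPM it was r = -0.41 (rho = -0.44). The values for the targets include GLS2 and EDA2R, which lay below 1 CPM and whose changes rest on few counts, so the gene sets are not alike. Over those genes the medians were 0.31 for short and -0.35 for long ones. In HCT116 oxpl-R the medians were 1.23 for short and 1.10 for long targets, of which 18 and 12 rose, with r = -0.12 over the 39 genes and r = -0.07 over all. Genes of any length were called higher at 9.04% in HCT116 and 3.09% in HCT116 oxpl-R. That share was not counted by length, so the counts of rises among short and long targets lack a background of their own. These are descriptions across genes, which share libraries and are not replicates, and the part of transcript length or library quality in them was not tested. ASCC3 spans 373.2 kb, DRAM1 134.6 kb, CYFIP2 129.5 kb, SESN1 110.5 kb and SUSD6 103.5 kb. Of these 5 long genes, CYFIP2 and SUSD6 rose in HCT116, and all but ASCC3 rose in HCT116 oxpl-R. SESN1 was also called higher in HCT116 by edgeR once the transcript length trend was removed (0.85, adjusted p = 0.030). The calls of DRAM1 and SUSD6 in HCT116 changed with the setting or with single libraries, as given above.

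The untreated lines were compared next. In HCT116 oxpl-R controls 15 of the 39 genes were higher than in HCT116 controls, 2 were lower and 22 did not pass, against a background of 7.23% of genes called higher and 6.93% called lower. The median difference was 0.41. This comparison shares its control samples with the oxaliplatin comparisons above, so their values are not independent.

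GDF15 was at 479.6, 389 and 435 CPM in the untreated resistant line and at 67.5, 63.4 and 52.6 CPM in HCT116 (2.83 ± 0.23). PLK2 was at 211, 235 and 207 CPM against 34.7, 38.3 and 31.3 CPM (2.65 ± 0.20). Neither gene's groups overlapped, and the untreated PLK2 level of the resistant line lay above that of every HCT116 sample given oxaliplatin, at most 74.8 CPM. SPATA18, with 46, 51 and 55 counts against 7, 1 and 4, differed by 3.76 ± 0.57. RPS27L (1.56 ± 0.37), PHLDA3 (1.25 ± 0.21), TP53INP1 (1.24 ± 0.23), DDB2 (1.15 ± 0.16) and NADSYN1 (1.05 ± 0.16) were higher by at least 1 log2 unit, and TP53I3, TRIAP1, BTG2, BTG1, FUCA1, IER5 and GADD45A by 0.53 to 0.97. GADD45A lost its call once the transcript length trend was removed (0.37, adjusted p = 0.17), and GADD45A, IER5 and TRIAP1 each lost it without single libraries (adjusted p up to 0.13, 0.072 and 0.16). Lower in the resistant line were KITLG, at 104, 69.5 and 304 against 818, 818 and 559 CPM (-2.20 ± 0.55), and PTP4A1, at 184, 197 and 152 against 357, 377 and 351 CPM (-1.02 ± 0.22). FDXR (0.31 ± 0.19), SFN (0.23 ± 0.16), PLK3 (0.14 ± 0.18), AEN (0.06 ± 0.16), SESN2 (-0.03 ± 0.19) and SUSD6 (-0.22 ± 0.18) were not called, nor were TIGAR (0.97 ± 0.35, adjusted p = 0.067), SESN1 (0.74 ± 0.30), FBXO22, CCNG1, RRM2B, CYFIP2, RAP2B, ABHD4, DRAM1, CES2, PIDD1, SERTAD1, NINJ1 and ASCC3. CYFIP2 was called higher after the expression filter and by DESeq2, and TIGAR, SESN1, FBXO22, CCNG1 and CYFIP2 with these 6 samples alone.

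Under oxaliplatin the lines differed in 23 of the 39 genes. In the resistant line 21 were higher and 2 lower, with a background of 13.8% and 12.3%. The median difference was 0.56. TP53I3 was at 320.0, 307 and 315 CPM in the resistant line against 68.3, 70.0 and 36.1 CPM (2.43 ± 0.22). SESN1 was at 42.5, 49.8 and 74.1 against 9.04, 14.3 and 16.4 CPM (2.06 ± 0.31), PLK2 differed by 2.57 ± 0.20, TP53INP1 by 1.98 ± 0.23, GDF15 by 1.90 ± 0.22 and SPATA18 by 3.04 ± 0.50. TIGAR (1.65), RRM2B (1.77), FBXO22 (1.37) and CCNG1 (1.28), which oxaliplatin did not raise in HCT116, were higher in the treated resistant line than in the treated parental line. Smaller differences were called for CYFIP2 (0.74), SFN (0.68), CES2 (0.56) and BTG2 (0.50). BTG2 lost its call without any one of 4 of the 6 libraries (adjusted p up to 0.17), CES2 without any one of 5 of the 6 (adjusted p up to 0.11), both also with these samples alone, and RRM2B without replicate 3 of HCT116 oxpl-R with oxaliplatin (1.07, adjusted p = 0.083). PTP4A1 (-0.83 ± 0.22) and AEN (-0.42 ± 0.16, adjusted p = 0.04999) were lower, AEN at the edge of the threshold and lost without replicate 1 of HCT116 with oxaliplatin (adjusted p = 0.094). KITLG did not differ beyond its spread (-0.09 ± 0.53). DDB2 (0.25), FDXR (0.19), PLK3 (0.08), RPS27L (0.05), IER5 (0.03) and SESN2 (-0.06) were not called, nor were RAP2B, ABHD4, ASCC3, PHLDA3, SERTAD1, NINJ1 and PIDD1. Without replicate 3 of HCT116 with oxaliplatin, ASCC3 was called higher (1.30, adjusted p = 0.0039, in place of 0.36) and PIDD1 lower (-0.77, adjusted p = 0.0085, in place of -0.53). PIDD1 was also called lower without replicate 1 of HCT116 oxpl-R with oxaliplatin (adjusted p = 0.027), with RLE scaling, with the expression filter and by DESeq2. TRIAP1 (1.46), NADSYN1 (1.79), FUCA1 (1.38), BTG1 (1.10), GADD45A (1.05), DRAM1 (0.96) and SUSD6 (0.93) complete the higher genes.

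The other genes of the pathway, outside the 39, gave the setting. Of 17 upstream and core genes of the pathway tested, 1 was called higher and 5 lower with oxaliplatin in HCT116, and 2 higher and 1 lower in HCT116 oxpl-R, beside the 9.04% and 8.49% of all genes called higher and lower in HCT116 and the 3.09% and 3.07% in HCT116 oxpl-R. MDM2 measured 102, 105 and 96.4 CPM in the HCT116 controls and 107, 126 and 184 CPM with the drug, which was not called, and in the resistant line it rose from 181, 168 and 149.8 to 604, 712 and 798 CPM. Its response differed between the lines by 1.62 (adjusted p = 0.0010). Of 8 further targets tested, 6 rose in HCT116 (9.04% of all genes) and 7 in HCT116 oxpl-R (3.09%), with CDKN1A, the p21 inhibitor of cyclin-dependent kinases, up by 3.70 and 2.87.

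Taking E1A alone, none of the 39 genes was called by edgeR with doxycycline in HCT116 (background 0.385% of genes called in either direction) or in HCT116 oxpl-R (0.215%). At an unadjusted p under 0.05 there were 6 genes in HCT116 (background 6.28%) and 6 in HCT116 oxpl-R (5.00%). In HCT116 these were SPATA18, CYFIP2 and IER5 with positive changes and GADD45A, CCNG1 and KITLG with negative ones. KITLG measured 283, 251 and 369 CPM against 818, 818 and 559 CPM in the controls, without overlap (-1.28 ± 0.53, adjusted p = 0.66). The test fitted with these 6 samples alone called 8 genes in HCT116 (background 8.95% in that fit), with KITLG at -1.33 (adjusted p = 6.6e-06) and CCNG1 at -0.74 (adjusted p = 0.0015) among 6 lower, and CYFIP2 at 0.44 (adjusted p = 0.014) and IER5 at 0.38 (adjusted p = 0.014) higher. DESeq2 called none there. In HCT116 oxpl-R all 6 changes were negative. PLK2 measured 112, 163 and 116 CPM with E1A against 211, 235 and 207 CPM (-0.74 ± 0.19, adjusted p = 0.15), the lowest adjusted p of the 39. DESeq2 called PLK2 (-0.73, adjusted p = 0.027, background 0.600%). GDF15 (366, 196 and 262 against 479.6, 389 and 435 CPM) and GADD45A (69.0, 73.9 and 67.3 against 100.03, 103 and 93.6 CPM) also lay below their controls in every sample and were not called. In all, 7 of the 39 genes lay wholly below their controls there and 4 wholly above. CYFIP2 was among the latter (93.7, 86.9 and 79.7 against 75.7, 74.8 and 69.7 CPM). The shares of all genes that did so were not counted. The difference between the lines in the E1A response was called for none of the 39 (background 0.00876%), with 2 at an unadjusted p under 0.05 (background 1.85%), and DESeq2 called none.

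Adding E1A to oxaliplatin changed none of the 39 genes past the threshold of edgeR, in HCT116 (background 0.0832%) or in HCT116 oxpl-R (1.41%). Unadjusted p-values under 0.05 were found for 2 genes in HCT116, GDF15 and TP53INP1 (background 3.20%), and for 9 in HCT116 oxpl-R (background 9.30%), all 9 with negative changes. In HCT116 oxpl-R, every sample with both agents lay below every sample with oxaliplatin alone for 10 of the 39 genes, against 4.03% of all genes, and for none did all lie above. These were ABHD4, SUSD6, TP53I3, FUCA1, PLK3, NADSYN1, CES2, GADD45A, GDF15 and TP53INP1. GADD45A measured 163, 159 and 144 CPM with both against 261, 229 and 178 CPM (-0.52 ± 0.17, adjusted p = 0.14). NADSYN1 measured 82.5, 108 and 105 against 144, 139 and 115 CPM (-0.43 ± 0.16, adjusted p = 0.24). DESeq2 called these 2 genes (background 2.87%), at -0.54 (adjusted p = 0.018) and -0.45 (adjusted p = 0.012), and none in HCT116. GDF15 measured 1147, 1098 and 1208 CPM with both against 2390.3, 1531 and 1338 CPM (-0.61 ± 0.22, adjusted p = 0.24). TP53I3 measured 212, 238 and 289.8 CPM against 320.0, 307 and 315 CPM (-0.35 ± 0.21, adjusted p = 0.68). The interaction of E1A and oxaliplatin was called for none of the 39 in HCT116 (background 0.0131%) or HCT116 oxpl-R (0.0438%). Unadjusted p-values under 0.05 numbered 4 in HCT116 (NINJ1, PLK3, ABHD4 and CYFIP2, all negative, background 3.71%) and 1 in HCT116 oxpl-R (SUSD6, negative, background 3.02%), and DESeq2 called none in either.

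**Figure D3:**
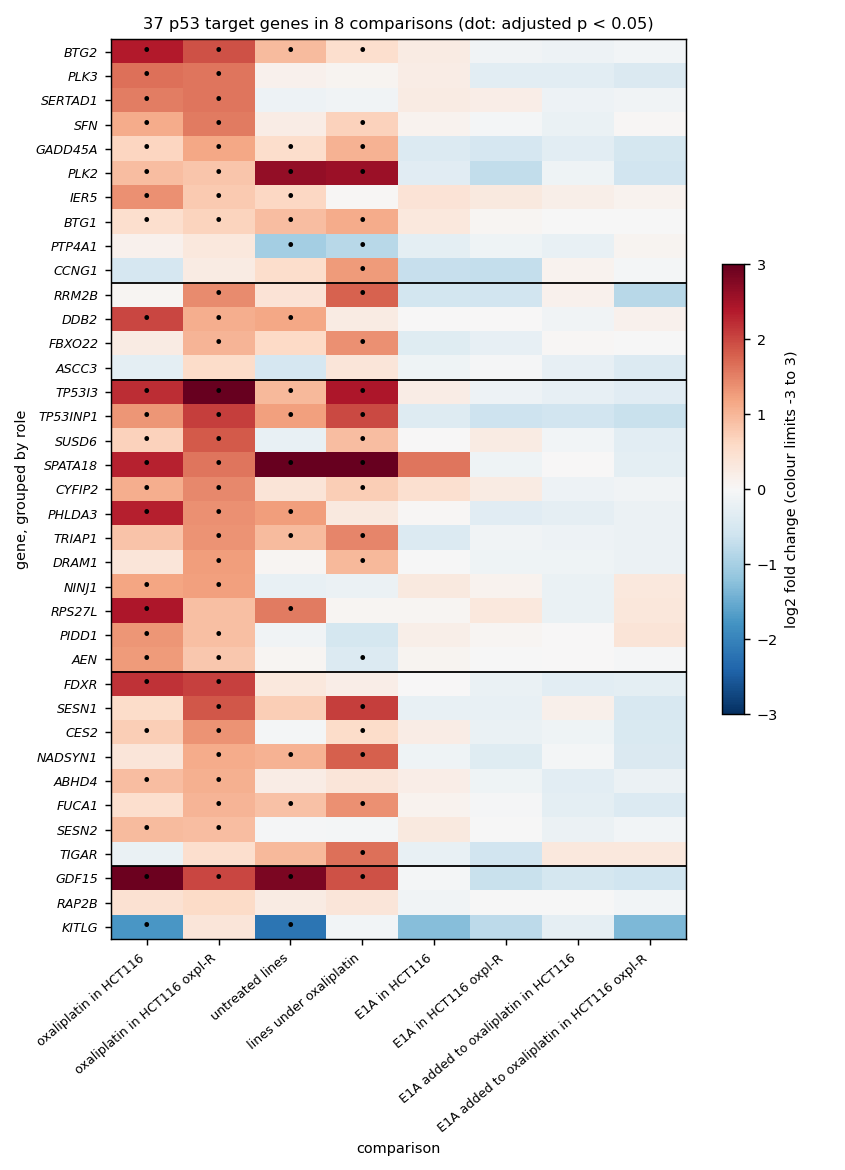
Log2 fold change (colour) of 37 of the genes, in rows grouped by role, in 8 comparisons between pairs of groups; a dot marks an adjusted p under 0.05, and GLS2 and EDA2R are left out. Dots mark 25 and 30 genes in the oxaliplatin columns of HCT116 and HCT116 oxpl-R and none in the 4 E1A columns.

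The level of the set in each sample was summarised as the median over the 37 genes with at least 1 CPM of the log2 ratio to the HCT116 control mean, with 0.1 CPM added. It was -0.01, -0.01 and 0.05 in the HCT116 controls and 0.93, 0.97 and 0.92 with oxaliplatin. In HCT116 oxpl-R it was 0.43, 0.45 and 0.45 untreated and 1.64, 1.61 and 1.72 with oxaliplatin. With both agents it was 0.95, 0.79 and 0.77 in HCT116 and 1.48, 1.55 and 1.496 in HCT116 oxpl-R. With E1A alone it was 0.06, -0.01 and 0.00 in HCT116 and 0.29, 0.30 and 0.48 in HCT116 oxpl-R. The ranges with and without E1A overlapped in HCT116 and in the HCT116 oxpl-R samples without drug. With oxaliplatin in HCT116 oxpl-R the samples given E1A all lay below those without it. No test was made on this median.

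**Figure D4:**
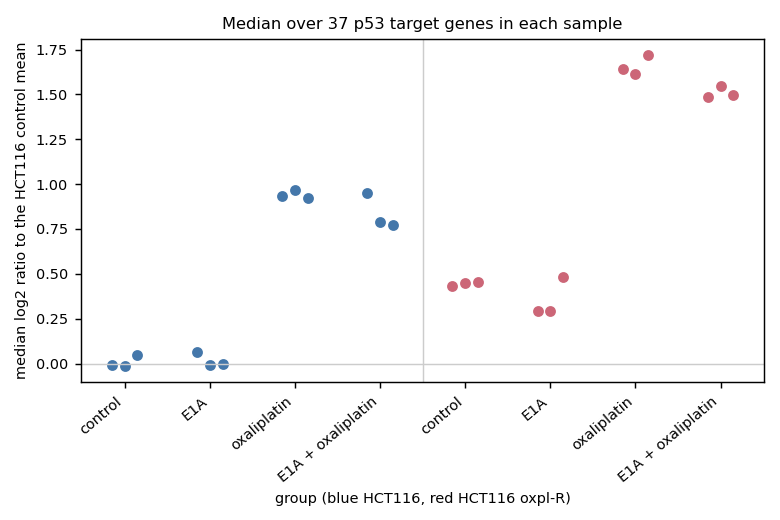
Median log2 ratio of 37 p53 target genes to the HCT116 control mean in each of the 24 samples, by group. The untreated HCT116 oxpl-R samples lie at 0.43 to 0.45, between the HCT116 controls (-0.01 to 0.05) and HCT116 with oxaliplatin (0.92 to 0.97).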

How the data were processed

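RNA of 24 samples was sequenced, in 8 groups of 3. The authors trimmed reads with Trimmomatic, quantified transcripts with Salmon 1.6.0 against GENCODE on GRCh38 with correction of sequence and GC bias, and summed them to genes with tximport. The deposited values are estimated counts in 2 tables. The first (33113 complete genes) ends within the alphabet, so 32 of the 39 genes came from it and 7 (SFN, SPATA18, SUSD6, TIGAR, TP53I3, TP53INP1 and TRIAP1) from the second. The second is named TPM, but its columns sum to 28004261 to 42613322, so it was read as estimated counts scaled by transcript length. Between 15.9% and 30.4% of values were not whole, and all were rounded.

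Tests used edgeR 4.0.16 in R 4.3.3 (quasi-likelihood, TMM), with 8 group means fitted to all 24 samples, 16 residual degrees of freedom, no fold limit and Benjamini-Hochberg adjustment over 22833 genes with a count in any sample. The standard error is the fold change divided by the square root of F. Simulated data with known changes showed that this unfiltered fit admits more false calls than its nominal rate, and fewer once edgeR's expression filter is applied, so results with that filter were computed beside it. Alternatives were RLE scaling, that filter, a replicate block, the second table for all genes, own samples only, DESeq2 1.42.0, limma 3.58.1 on log2 values with 1 or 0.1 added, a fold limit of 1 log2 unit, and each library left out. Named genes were up to 6 called genes with the greatest and 6 with the smallest change among those without overlap, and every called gene where 12 or fewer were called. Genes outside this rule are given to account for all members and were chosen with their values seen. The genes, their roles and the other lists were chosen with earlier results of these data known. Replicates of the same number deviated together in all 3 pairs (r = 0.12, 0.20 and 0.25) only between the oxaliplatin groups of the 2 lines. Promoters came from RefSeq (GRCh38.p14) and gene lengths from GENCODE on GRCh38.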

Additional observations from a re-analysis of the deposited data

Results flagged for a closer look

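Each of the 4 genes below responded to oxaliplatin differently in the 2 lines by the test of the difference itself (interaction of line and drug, edgeR). TP53I3 responded more in HCT116 oxpl-R by 1.47 log2 units and SUSD6 by 1.14. DRAM1 responded more by 0.90 and DDB2 less, with a difference of -0.90. TP53I3 and SUSD6 were called under every alternative run, and DRAM1 and DDB2 were not. What lies behind these differences was not tested.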

How the results depend on the processing

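The lines differed in their oxaliplatin response in 4 of the 39 genes. This count was 2 with a fold limit, 7 after the expression filter, 8 by DESeq2, 10 with a replicate block and 16 without the 3 libraries that stood apart, and from 2 to 11 when single libraries were left out. Of all genes, 0.950% were called higher and 2.12% lower in the main fit, and 7.03% in either direction by DESeq2. The share was 1.40% without replicate 2 of the HCT116 controls and 6.99% without replicate 3 of HCT116 with oxaliplatin. It was not counted for the fold limit, the filter, the block or the 3 libraries, so those counts lack a background. With the fold limit the count fell to 10 between the untreated lines and to 15 under oxaliplatin. For E1A in HCT116, fitting its own samples alone called 8 genes in place of 0 (8.95% of all genes in that fit, against 0.385% in the main fit). For E1A in HCT116 oxpl-R the count was 1 by DESeq2 (0.600% of all genes), 2 without the 3 libraries, and 0 to 1 with single libraries left out. For E1A added to oxaliplatin in HCT116 oxpl-R it was 2 by DESeq2 (2.87% of all genes), 1 with the transcript length trend removed, 2 without the 3 libraries, and 0 to 1 with single libraries left out. Where no share of all genes is given beside a count here, none was counted. The causes of these shifts were not tested. Counts in all other settings stayed within 1.5 times the main count. Of the named genes' values, 643 kept direction and side of the threshold, 33 kept direction but lost the call, and 0 turned. These totals do not count each single library left out separately, so they understate the calls lost in those runs, such as those of DRAM1, CES2, BTG2, KITLG and BTG1. Nor do they hold every call lost under the fold limit, which any named gene with a change under 1 log2 unit loses. Removing the length trend, leaving mitochondrial genes out of library sizes and leaving the 3 libraries out together were chosen after seeing the data. Samples with the same number deviated together throughout only between the oxaliplatin groups of the lines, where the replicate block gave 23 calls, as without it. In HCT116 oxpl-R, replicates 2 and 3 also deviated together with oxaliplatin (r = 0.51 and 0.58) and with E1A (r = 0.56 and 0.74). For replicate 1 there, r was 0.08 and 0.07. With oxaliplatin or E1A in HCT116 and between the untreated lines all 3 pairs were negative. The labels do not say whether samples of the same number were handled together. The block gave 27 calls with oxaliplatin in HCT116, 31 in HCT116 oxpl-R, 19 between untreated lines and 0 in every E1A comparison. The share of all genes called with the block was not counted.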
